A study of Mus musculus with 10 samples.

Results

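Tight junctions and gap junctions were examined in mouse lung squamous cell carcinoma (SCC) through 48 genes: the claudins, the connexins of the alpha, beta and gamma classes, the zonula occludens proteins, the 4-pass proteins Ocln, Marveld2 and Marveld3, the adhesion proteins F11r and Cxadr, and the plaque protein Cgn. They were chosen by symbol, leaving out Cldn5, Gja4 and Gja5, which mark endothelium. Of 57 genes with such symbols in the reference table, 48 had a probe on the array, out of 19096 genes with a probe, and 38 of the 48 were bright enough to test, out of 15586 genes tested. The other 9 are not analysed here. Total RNA came from 5 whole lungs of wild-type (WT) mice, which carried the floxed alleles without Cre (Lkb1f/f), and from 5 whole lung tumors of CCSPiCreLkb1f/f mice. In both groups the mice were 13 months old, of strain B6.129, untreated, and homozygous for the floxed Lkb1 allele. Lkb1 encodes a serine/threonine kinase that acts as a tumor suppressor. In the SCC mice the Cre recombinase was driven by the promoter of the Club Cell Secretory Protein, so the deletion was directed to airway epithelial cells that use this promoter and their progeny, and a whole tumor also holds stromal, vascular and blood cells, which it was not directed to. RNA from each sample had been hybridized to 1 single-color Agilent whole-mouse-genome array. The comparison asks how the transcripts of the 2 junction types differ between SCC and WT lung.

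Tight junctions seal the space between neighboring epithelial cells. Claudins form their strands by binding each other across the gap between cells, and the mixture of claudins sets which ions and how much water pass: some claudins tighten the seal and others form pores. Zonula occludens and other plaque proteins hold the strands to actin beneath the membrane. Gap junctions are channels that join the cytoplasm of neighboring cells and pass ions and small molecules, and each is built from connexins of both cells. Alveolar epithelium is known for Cldn18, Cldn3 and Cldn4, and stratified squamous epithelium for Cldn1, Cldn4 and several beta connexins.

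All values are normalized log2 signals of the brightest probe of each gene, and a difference is SCC minus WT on that scale, so that 1 means 2-fold. Values of single arrays are listed in the order of replicates 1 to 5. A gene was called where limma gave an adjusted p below 0.05 over all tested probes and the difference was at least 2-fold. A signal compares the same probe between arrays and says nothing of the level of one gene against another. In RNA from whole tissue, fewer cells of a type and less RNA per cell cannot be told apart.

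The arrays differed in ways that touch these genes. Between 71.0% and 74.5% of probes were well above background on 9 arrays and 90.2% on SCC replicate 5, which also stood apart in some dim genes. SCC replicate 2 was closer to the WT arrays (r from 0.94 to 0.946 across probes) than the other 4 tumors were (0.85 to 0.905). The mean signal of 6 squamous or basal cell markers was 3.93 to 4.51 on the WT arrays, 14.81 to 15.20 in 4 tumors and 11.68 in SCC replicate 2. All 5 tumors thus lay above all lungs in the mean of these markers, which does not settle the type of each tumor. Of these markers, Dsg3, Krt6a and Pkp1, were above background on none of the WT arrays. The mean of 5 simple epithelial markers was 13.70 to 14.09 on the WT arrays, 14.65 to 14.99 in 4 tumors and 15.61 in SCC replicate 2, so the groups did not overlap. The arrays came from 3 slides, of which the first held only WT arrays (replicates 1 to 4) and the third only SCC arrays (replicates 4 and 5). Slide 2 held the remaining lung, WT replicate 5, beside the first 3 tumors, so a comparison within 1 slide rests on 3 tumors and 1 lung. Lkb1 itself is not analysed here.

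Junction genes were higher more often than lower in SCC. Of the 38 tested, 16 were called higher (42.1%) and 5 lower (13.2%), beside 11.6% higher, 13.4% lower and 24.9% in either direction over all 15586 genes tested. A further 7 passed the adjusted p under 2-fold and 10 did not pass it. In all, 28 passed the adjusted p (73.7%), against 53.9% of all genes, and in 22 the groups did not overlap (57.9%), against 41.4% of all genes. The median difference was 0.61 over the 38 and -0.04 over all genes. Of the 5 simple epithelial markers, 3 were called higher as well (Epcam by 1.74, Krt19 by 1.15 and Krt18 by 1.00), Cdh1 passed under 2-fold at 0.77 and Krt8 was 0.59 without passing, and the part of epithelial cell content in the junction gene counts was not tested. Among the 38, 5 entered the test only through their SCC arrays (Cldn2, Cldn6, Cldn17 and Cldn22 among them) and 2 only through WT (Cldn34c4 among them), so their part in these counts is tied to the filter. Among the 29 above background on all 10 arrays, 11 were called higher (37.9%) and 4 lower (13.8%), beside 9.94% and 12.4% of the 14183 genes that met the same condition, with a median of 0.59 against -0.04. The counts were 16 higher and 6 lower without SCC replicate 2 or without both SCC replicates 2 and 5, and 16 and 5 without SCC replicate 5. Within slide 2 all 21 called genes kept their direction. For the 18 of them whose groups did not overlap, it could not have turned, because the same arrays are compared. That comparison has 1 lung, which is assumed to vary like the arrays of the other slides, from which the fit takes most of its spread.

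**Figure D1:**
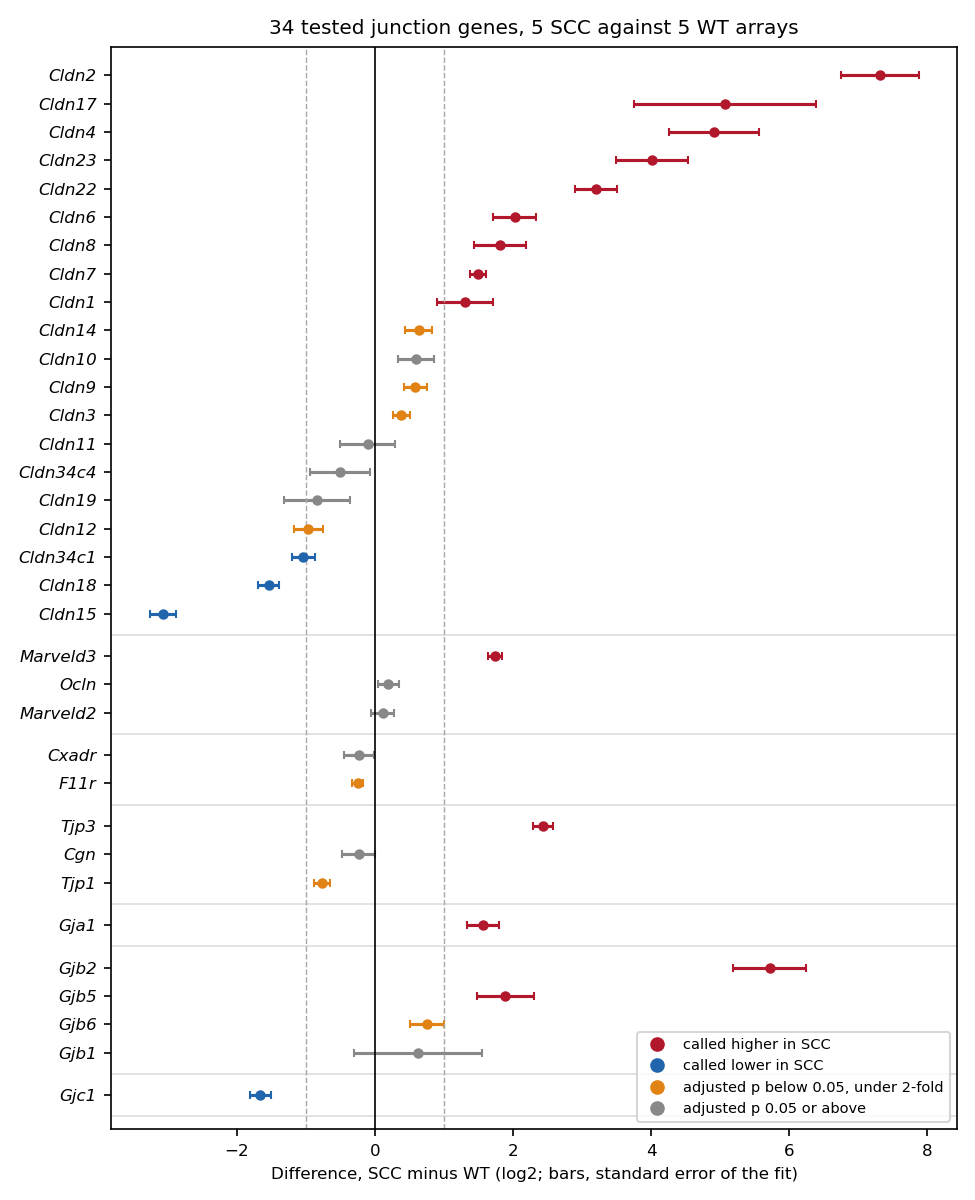
Difference between 5 SCC and 5 WT arrays on the log2 scale for 34 of the 38 tested junction genes, in blocks from top to bottom of claudins, other 4-pass proteins, adhesion proteins, plaque proteins and alpha, beta and gamma connexins. Points are the fitted differences, bars the standard error, dashed lines 2-fold, and colors the call. Cldn2 lies farthest right at 7.31 and Cldn15 farthest left at -3.08.

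The start regions of 34 of the 48 genes were listed in the RefSeq promoter table (build GRCm38.p6), as windows of 250 bases before and 50 after a transcript start. Motifs were searched by their letters on both strands. The AP-1 motif TGANTCA was in the window of 2 of the 11 called-higher genes that had one (Cldn4 and Gja1) and of 1 of 3 called lower (Cldn15). It was in 6 of all 34 genes (17.6%), beside 8.97% of the 27025 genes of the table. By windows it was in 12.2% of the 49 windows of the 34 genes, beside 7.81% of the 32851 windows of the table. The letters CAGGTG, an E-box that Snail proteins bind, were in a window of 5 of the 11 (Cldn4, Cldn6, Cldn7, Gjb2 and Tjp3) and of none of the 3. They were in 13 of all 34 (38.2%), beside 22.6% of the genes of the table, and in 32.7% of their windows, beside 20.2% of windows of the table. TATAAA was in 7 of the 34 (20.6%), of which Cldn2 and Gjb5 were called higher and none was called lower, beside 15.7% of the genes of the table. By windows it was in 16.3%, beside 13.6% of windows of the table. The Grainyhead-like motif AACCGGTT was in none of the 34, beside 0.174% of genes and 0.146% of windows of the table. AACCNGTT was in Cgn and Gjb6 (5.88% of the 34 and 4.08% of their windows), beside 2.35% of genes and 2.09% of windows of the table. Every match of AACCGGTT is also one of AACCNGTT. A match is a description of the letters and not a bound site.

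The 250 bases before the start of 5 called genes are shown 5′ to 3′ on the strand of the gene, chosen as called genes whose window held a motif. Capitals mark the motifs. In Cldn4 (chr5:134946935-134947184, minus strand) they are 2 AP-1 motifs beginning 240 and 158 bases before the start and an E-box 14 bases before it. In Gja1 (chr10:56377050-56377299, plus strand) they mark an AP-1 motif 19 bases before the start, and in Cldn15 (chr5:136967619-136967868, plus strand) an AP-1 motif 214 bases before it. In Cldn2 (chrX:139800558-139800807, plus strand) they mark TATAAA 35 bases before the start, and in Gjb2 (chr14:57104703-57104952, minus strand) an E-box 9 bases before it.
Cldn4: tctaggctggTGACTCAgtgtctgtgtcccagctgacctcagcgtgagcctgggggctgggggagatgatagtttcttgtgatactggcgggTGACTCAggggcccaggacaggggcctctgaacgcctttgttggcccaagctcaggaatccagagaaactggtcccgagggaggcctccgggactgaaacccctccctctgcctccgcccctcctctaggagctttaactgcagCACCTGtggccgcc
Gja1: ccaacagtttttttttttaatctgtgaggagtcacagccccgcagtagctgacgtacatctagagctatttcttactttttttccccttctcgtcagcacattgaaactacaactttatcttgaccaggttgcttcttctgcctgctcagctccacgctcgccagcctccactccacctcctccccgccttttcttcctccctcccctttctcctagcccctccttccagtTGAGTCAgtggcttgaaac
Cldn15: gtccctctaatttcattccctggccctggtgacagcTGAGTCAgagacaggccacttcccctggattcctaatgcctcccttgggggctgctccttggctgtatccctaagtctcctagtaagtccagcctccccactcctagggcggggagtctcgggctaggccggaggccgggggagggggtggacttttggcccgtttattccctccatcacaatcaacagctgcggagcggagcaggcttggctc
Cldn2: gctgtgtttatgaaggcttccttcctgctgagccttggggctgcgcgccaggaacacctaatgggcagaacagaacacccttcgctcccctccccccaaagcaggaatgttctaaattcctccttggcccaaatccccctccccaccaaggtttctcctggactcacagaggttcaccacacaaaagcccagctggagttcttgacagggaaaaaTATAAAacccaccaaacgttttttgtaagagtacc
Gjb2: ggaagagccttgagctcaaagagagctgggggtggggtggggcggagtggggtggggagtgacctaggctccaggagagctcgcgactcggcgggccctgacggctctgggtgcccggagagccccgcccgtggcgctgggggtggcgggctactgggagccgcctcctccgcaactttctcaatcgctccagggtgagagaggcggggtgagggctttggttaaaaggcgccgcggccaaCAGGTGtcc

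Claudins were the largest group, with 20 of 25 tested, 9 called higher and 3 lower, beside 11.6% and 13.4% of all genes, so that the lower calls were close to the share over all genes. Cldn2, which forms a pore for cations and water in leaky epithelia such as the kidney proximal tubule, was called higher. Its signals were 4.31, 3.37, 3.76, 3.55 and 4.60 in WT and 11.37, 13.30, 10.03, 10.29 and 11.17 in SCC. The groups lay far apart, and SCC replicate 2 was the highest of all arrays. The difference was 7.31 ± 0.56 (SE, adjusted p = 1.23e-05), and only 2 of the 5 WT arrays were above background, so its size rests on signals mostly not above background in WT. It was 6.80 with the other 4 tumors alone.

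Cldn4, a sealing claudin of many epithelia, read 4.69, 4.13, 4.38, 4.61 and 5.01 in WT and 9.79, 6.77, 10.59, 9.64 and 10.59 in SCC. Every tumor exceeded every lung, and SCC replicate 2 lay between the lungs and the other tumors. The difference was 4.91 ± 0.65 (SE, adjusted p = 0.000244), and 5.59 without SCC replicate 2. Cldn23 gave 8.29, 7.60, 8.04, 7.90 and 8.31 in WT and 12.26, 9.90, 13.04, 12.59 and 12.43 in SCC. It showed the same order, with no overlap and SCC replicate 2 lowest among the tumors. The difference was 4.02 ± 0.52 (SE, adjusted p = 0.000196). Within slide 2 these were 4.04 (adjusted p = 0.0697) for Cldn4 and 3.42 (adjusted p = 0.0596) for Cldn23.

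Cldn17, a claudin that forms a pore for anions, read 2.62, 4.12, 2.28, 2.63 and 2.83 in WT and 9.04, 2.31, 9.77, 9.19 and 9.53 in SCC. The other tumors were well above every lung and SCC replicate 2 was within the WT range. It was above background on no WT array and on 4 of 5 SCC arrays, which put SCC at least 15.03-fold higher, with a difference of 5.07 ± 1.32 (SE, adjusted p = 0.0101). Without SCC replicate 2 the difference was 6.49, and within slide 2 it was 4.21 (adjusted p = 0.293). Cldn8, the neighbor of Cldn17 on its chromosome and known from the distal nephron, read 8.34, 7.76, 9.04, 7.65 and 9.001 in WT and 10.29, 11.14, 9.39, 10.14 and 9.86 in SCC. The groups did not overlap, and SCC replicate 2 was here the highest tumor. The difference was 1.81 ± 0.38 (SE, adjusted p = 0.00332), and within slide 2 it was 1.27 (adjusted p = 0.264).

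Cldn22 read 2.91, 2.33, 2.42, 2.24 and 2.97 in WT and 6.68, 6.27, 5.51, 5.12 and 5.33 in SCC. All tumors lay above all lungs, where no array was above background. SCC was at least 3.35-fold higher, with a difference of 3.21 ± 0.31 (SE, adjusted p = 3.91e-05). Cldn6, best known from embryonic epithelia, read 3.51, 3.19, 3.86, 3.29 and 4.38 in WT and 5.69, 6.38, 4.76, 5.61 and 5.91 in SCC. It did not overlap either and was not above background on any WT array, so that SCC was at least 3.07-fold higher, with a difference of 2.02 ± 0.31 (SE, adjusted p = 0.000608). After another background correction (normexp) these 2 dim genes fell under 2-fold, at 0.54 for Cldn22 and 0.47 for Cldn6, and within slide 2 Cldn6 was 1.23 (adjusted p = 0.173).

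Cldn7, found along the lateral membrane of many epithelia, read 13.07, 12.59, 12.97, 12.63 and 12.82 in WT and 14.27, 14.47, 14.23, 14.40 and 14.17 in SCC. The 5 tumors lay close together and above all lungs. The difference was 1.49 ± 0.12 (SE, adjusted p = 1.33e-05), and within slide 2 it was 1.502 (adjusted p = 0.011). Cldn1, which the epidermis needs for its water barrier, read 7.30, 7.47, 7.34, 7.29 and 7.55 in WT and 9.09, 7.04, 9.63, 9.06 and 8.68 in SCC. SCC replicate 2 was below all lungs and the other 4 tumors were above them. The difference was 1.31 ± 0.41 (SE, adjusted p = 0.0236), and the exact two-sided permutation test gave p = 0.0476. The call was lost without SCC replicate 1 (difference 1.21, adjusted p = 0.0545), replicate 3 (difference 1.08, adjusted p = 0.0526) or replicate 4 (difference 1.22, adjusted p = 0.0536), and without SCC replicate 2 the difference was 1.72 (adjusted p = 3.71e-05). Within slide 2 the difference was 1.03 (adjusted p = 0.442). A second Cldn1 probe gave 2.53 ± 0.65 (adjusted p = 0.0099) over all arrays.

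The claudins called lower were Cldn15, Cldn18 and Cldn34c1. Cldn15, which forms a cation pore in the intestine, read 9.83, 9.49, 9.55, 10.03 and 9.60 in WT and 6.48, 6.53, 6.27, 6.56 and 7.25 in SCC. Every tumor was below every lung, SCC replicate 2 included. The difference was -3.08 ± 0.19 (SE, adjusted p = 3.84e-06), and within slide 2 it was -3.17 (adjusted p = 0.00275). Cldn18, whose lung isoform is a main claudin of alveolar epithelium, read 14.22, 14.01, 14.33, 14.39 and 14.25 in WT and 12.63, 13.23, 12.49, 12.52 and 12.64 in SCC. The groups did not overlap, and SCC replicate 2 was the highest tumor. The difference was -1.54 ± 0.15 (SE, adjusted p = 4.12e-05), and within slide 2 it was -1.46 (adjusted p = 0.0203). Cldn34c1 read 8.08, 7.99, 7.98, 8.20 and 7.40 in WT and 7.13, 6.98, 6.82, 6.57 and 6.96 in SCC. The groups did not overlap, with WT replicate 5 the lowest lung. The difference, -1.04 ± 0.16 (SE, adjusted p = 0.000675), was near 2-fold, fell under it without WT replicate 4 (-0.97) or SCC replicate 4 (-0.96), and was -0.42 (adjusted p = 0.217) within slide 2.

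Most alveolar markers were lower in SCC beside Cldn18. Of 4 type 1 cell markers 3 were called lower (Ager -2.21, Hopx -1.31 and Pdpn -1.30), and the fourth, Aqp5, was higher at under 2-fold (0.64, adjusted p = 0.0233). Their list mean was up to 14.28 on the WT arrays and 12.96 to 13.47 on the SCC arrays. The lowest WT mean, 13.53, was that of replicate 1. It leaves out Aqp5, which had no value on that array, and so cannot be set beside the others. Of 5 type 2 cell markers none was called, but 3 passed the adjusted p lower in SCC at under 2-fold (Sftpb -0.86, Lamp3 -0.81 and Sftpa1 -0.74). The list had a median of -0.74 and means of 15.72 to 15.82 in WT and 14.997 to 15.64 in SCC. No marker of either list was at background in a whole group. The part of cell composition in the difference of Cldn18 was not tested.

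Cldn3, a sealing claudin next to Cldn4 on its chromosome, read 13.50, 13.23, 13.52, 13.29 and 13.58 in WT and 13.79, 14.08, 13.52, 13.84 and 13.82 in SCC. The groups overlapped slightly, and the difference of 0.38 ± 0.12 (SE, adjusted p = 0.0256) passed the test under 2-fold. With 1 array left out its adjusted p reached up to 0.0648. Cldn9, next to Cldn6 and known from the inner ear, differed by 0.59 ± 0.17 (SE, adjusted p = 0.017), and Cldn14, also of the inner ear and the kidney, by 0.63 ± 0.20 (SE, adjusted p = 0.0262). Cldn12 differed by -0.97 ± 0.21 (SE, adjusted p = 0.0039), and these 3 also passed under 2-fold. With 1 array left out the adjusted p of Cldn14 reached up to 0.0615. Without SCC replicate 2, the only tumor near the WT values of Cldn12, the difference was -1.18 and the gene was called lower. Cldn10, which forms ion pores in kidney and glands, differed by 0.59 ± 0.26 (SE, adjusted p = 0.0854) and did not pass. Cldn11, a myelin and testis claudin, differed by -0.10 ± 0.40 (SE, adjusted p = 0.845), Cldn19 by -0.84 ± 0.48 (SE, adjusted p = 0.167) and Cldn34c4 by -0.51 ± 0.43 (SE, adjusted p = 0.347). None of these 3 passed, and each was lowest on SCC replicate 5. The remaining 5 claudins were not tested because too few arrays were above background, namely Cldn13, Cldn16, Cldn34b2, Cldn34b3 and Cldn34d.

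**Figure D2:**
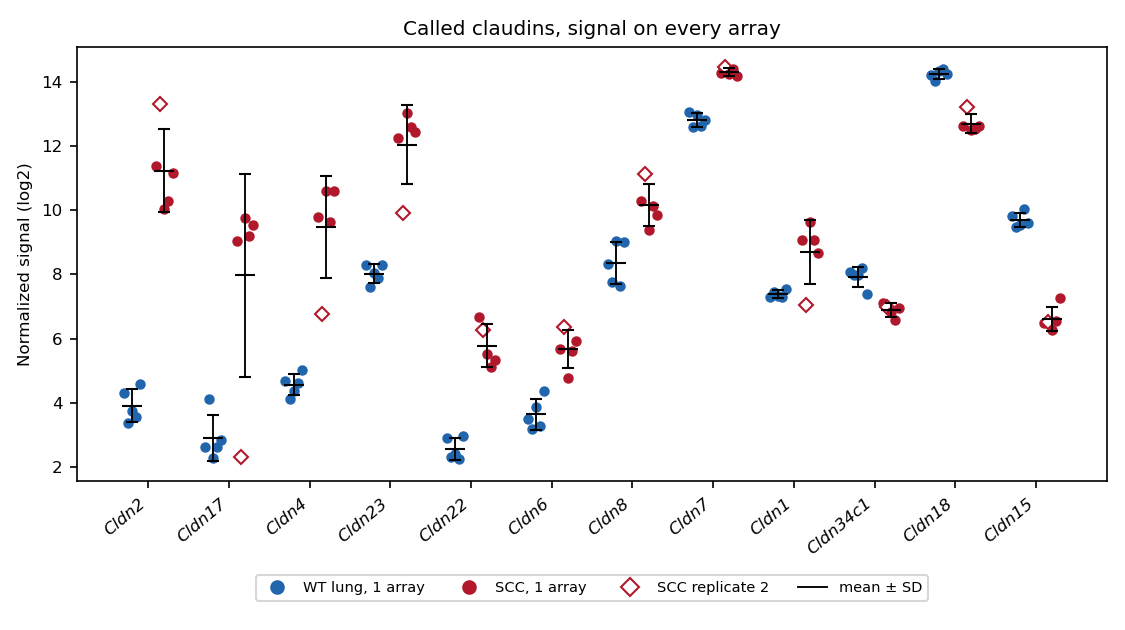
Normalized log2 signal of the 12 called claudins on each of 5 WT (blue) and 5 SCC (red) arrays, with the mean and SD of each group in black. Open diamonds are SCC replicate 2, which is the lowest tumor for Cldn17 at 2.31, Cldn4 at 6.77, Cldn23 at 9.90 and Cldn1 at 7.04, and the highest for Cldn2 at 13.30.

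Of the 3 other 4-pass proteins Marveld3 alone passed the test. Its signals were 9.88, 9.65, 9.73, 9.76 and 9.69 in WT and 11.43, 11.41, 11.68, 11.59 and 11.31 in SCC. The tumors lay within a narrow range above all lungs, SCC replicate 2 among them. The difference was 1.74 ± 0.10 (SE, adjusted p = 2.11e-06). Within slide 2 it was 1.81 (adjusted p = 0.00329), and on a second probe 1.58. Ocln, occludin, read 11.01, 10.56, 10.57, 10.45 and 10.57 in WT and 10.68, 11.12, 10.97, 10.93 and 10.44 in SCC. The groups overlapped and the difference, 0.19 ± 0.15 (SE, adjusted p = 0.319), did not pass. Marveld2, or tricellulin, which sits where 3 cells meet, read 10.39, 10.24, 9.91, 10.03 and 10.20 in WT and 10.03, 10.85, 10.13, 10.28 and 10.05 in SCC. It also overlapped, with a difference of 0.11 ± 0.17 (SE, adjusted p = 0.606). Ocln and Marveld2 are neighbors on their chromosome.

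F11r, the junctional adhesion molecule JAM-A, read 15.57, 15.48, 15.67, 15.75 and 15.55 in WT and 15.32, 15.23, 15.41, 15.32 and 15.48 in SCC. Every tumor was slightly below every lung, and the difference of -0.25 ± 0.09 (SE, adjusted p = 0.0339) passed the test at well under 2-fold. Cxadr, the coxsackie and adenovirus receptor, read 10.38, 10.62, 10.77, 10.77 and 10.70 in WT and 10.35, 11.23, 10.22, 10.01 and 10.27 in SCC on its brightest probe. The other 4 tumors were below the lungs and SCC replicate 2 was above them, so the difference was -0.23 ± 0.21 (SE, adjusted p = 0.387). The 2 other Cxadr probes, which carry another transcript accession, were higher in SCC, by 1.90 ± 0.18 (adjusted p = 4.06e-05) and 1.52 ± 0.25 (adjusted p = 0.000762). The direction for Cxadr thus depended on the probe.

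Tjp3 (ZO-3), a plaque protein found in epithelia, read 10.74, 10.36, 10.66, 10.25 and 10.49 in WT and 12.65, 13.27, 12.82, 13.06 and 12.87 in SCC. All tumors exceeded all lungs, with SCC replicate 2 highest. The difference was 2.43 ± 0.14 (SE, adjusted p = 2.98e-06), and within slide 2 it was 2.42 (adjusted p = 0.0048). Tjp1 (ZO-1), which is also present in endothelium and other cells, read 12.86, 12.72, 12.78, 12.88 and 12.68 in WT and 11.77, 12.33, 12.14, 11.94 and 11.91 in SCC. Every tumor was below every lung, and the difference of -0.77 ± 0.12 (SE, adjusted p = 5e-04) passed under 2-fold, whereas a second probe gave -0.06 ± 0.28 (adjusted p = 0.87). Cgn, cingulin, which links the plaque to actomyosin, read 7.94, 8.02, 8.11, 7.93 and 7.97 in WT and 7.68, 8.29, 7.98, 7.99 and 6.83 in SCC. SCC replicate 5 was the lowest array, and the difference was -0.24 ± 0.24 (SE, adjusted p = 0.421).

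Beta connexins, which are typical of stratified and glandular epithelia, were the class with the largest differences among gap junction genes. All 6 were tested, 4 were called higher, and none was called lower, beside 11.6% and 13.4% of all genes. Gjb2, whose loss is a common cause of inherited deafness and which keratinocytes also make, read 9.10, 8.52, 8.84, 8.49 and 8.80 in WT and 14.88, 12.21, 15.29, 14.88 and 15.11 in SCC. Every tumor was far above every lung, and SCC replicate 2 was the lowest tumor. The difference was 5.72 ± 0.53 (SE, adjusted p = 3.2e-05), and within slide 2 it was 5.33 (adjusted p = 0.0175). On a second probe no WT array was above background, and SCC was at least 15.1-fold higher, with a difference of 5.75 ± 0.52 (adjusted p = 2.83e-05).

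Gjb5, another connexin of keratinocytes, read 5.93, 5.97, 5.57, 6.94 and 6.65 in WT and 8.20, 6.64, 8.55, 8.65 and 8.46 in SCC. SCC replicate 2 fell within the WT range and the other 4 tumors lay above it. The difference was 1.89 ± 0.41 (SE, adjusted p = 0.0041). Without SCC replicate 2 it was 2.25, and within slide 2 it was 1.15 (adjusted p = 0.337).

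Gjb6, the partner of Gjb2 in skin and inner ear and its neighbor on the chromosome, read 10.43, 10.53, 11.11 and 10.51 on the WT arrays 1, 2, 3 and 5, the spot of replicate 4 being left out for its outlier flag, and 11.61, 10.78, 11.95, 11.24 and 11.40 in SCC. The groups overlapped. The difference of 0.75 ± 0.24 (SE, adjusted p = 0.0314) passed under 2-fold, and a second probe gave 0.73. On the authors' matrix it was 1.11 (limma, adjusted p = 0.037), which is a call. With 1 array left out of the main fit the adjusted p of Gjb6 reached up to 0.0819. Gjb1, a connexin of liver and Schwann cells, differed by 0.63 ± 0.93 (SE, adjusted p = 0.594), with SCC signals spread from 1.92 in replicate 3 to 7.96 in replicate 2.

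Gja1, the connexin found in most tissues, including heart and epidermis, was the only one of 5 alpha connexins bright enough to test. Its signals were 9.35, 9.38, 9.42, 9.38 and 9.22 in WT and 11.17, 9.96, 11.20, 11.24 and 11.01 in SCC. The groups did not overlap, and SCC replicate 2 lay nearest to the lungs. The difference was 1.57 ± 0.23 (SE, adjusted p = 0.000449), and within slide 2 it was 1.56 (adjusted p = 0.0571). Gja3, Gja6 and Gja10 were not tested.

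Gjc1, a gamma connexin known from the cardiac conduction system and vascular smooth muscle, read 12.13, 12.02, 12.30, 12.03 and 11.80 in WT and 10.44, 10.85, 10.23, 10.37 and 10.10 in SCC. No tumor reached the lungs, and SCC replicate 2 was the highest tumor. The difference was -1.66 ± 0.15 (SE, adjusted p = 2.87e-05). Within slide 2 it was -1.30 (adjusted p = 0.02), and on a second probe -1.53. Gjc3 was not tested.

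Markers of 2 other tissue parts fell with Gjc1, and those of smooth muscle in part. All 8 endothelial markers were called lower (the largest were Tek -2.89, Kdr -2.76 and Cldn5 -2.47), with list means of 13.17 to 13.41 in WT, 11.90 in SCC replicate 2 and 10.79 to 11.14 in the other tumors. The 10.79 was that of SCC replicate 3 and leaves out Gja4, which had no value on that array. All 5 cardiac muscle markers were called lower (the largest were Myh6 -4.68, Myl4 -3.75 and Tnnt2 -3.37), with means of 11.15 to 14.47 in WT and 9.10 to 11.004 in SCC. Of 5 smooth muscle and pericyte markers 2 were called lower (Cnn1 -1.23 and Myh11 -1.18), Pdgfrb passed under 2-fold (-0.83), and Acta2 (0.40) and Cspg4 (-0.14) did not pass, with means of 11.93 to 12.32 in WT and 11.31 to 12.05 in SCC. No marker of these 3 lists was at background in a whole group. The part of these cells in the difference of Gjc1 was not tested.

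**Figure D3:**
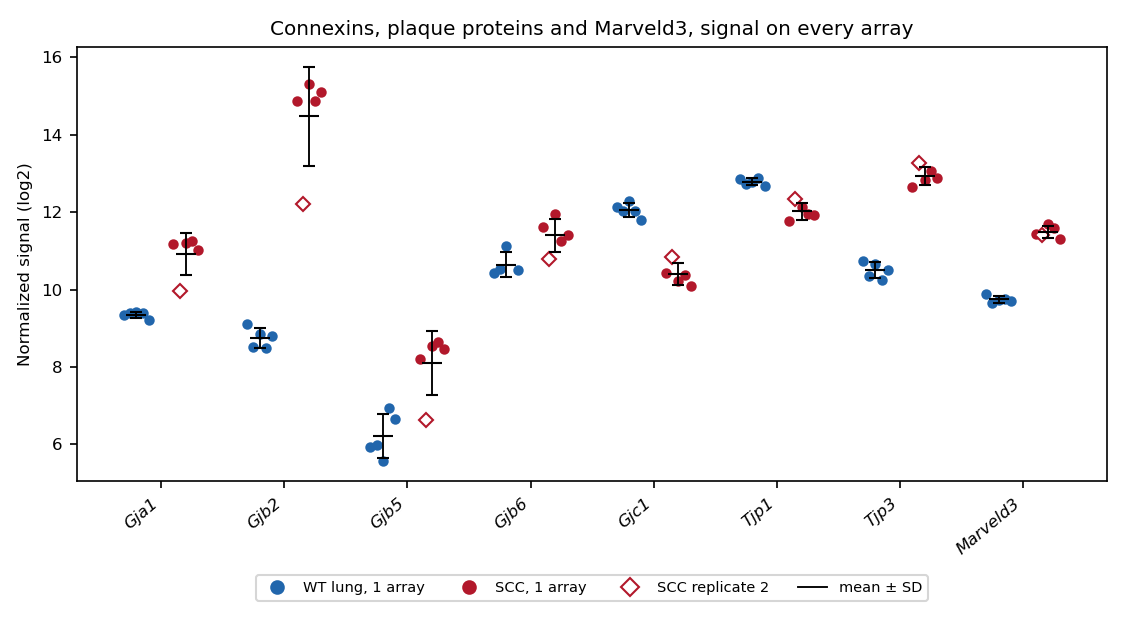
Normalized log2 signal of 5 connexins, the zonula occludens genes Tjp1 and Tjp3, and Marveld3 on each of 5 WT (blue) and 5 SCC (red) arrays, with the mean and SD of each group in black. Open diamonds are SCC replicate 2, the lowest tumor for Gja1, Gjb2, Gjb5 and Gjb6 and the highest for Tjp3 at 13.27 and Gjc1 at 10.85.

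SCC replicate 2 was the lowest or the highest tumor for most genes of the array, and for the junction genes as well. Among the genes called higher, it was the lowest of the 5 for 9 of the 16, among them Cldn1, Cldn4, Cldn17, Cldn23, Gja1, Gjb2 and Gjb5. It was the highest for 5: Cldn2, Cldn6, Cldn7, Cldn8 and Tjp3. Over all 1803 genes called higher it was the lowest tumor for 72.2% and the highest for 14.2%. SCC replicate 2 minus the mean of the other 4 tumors was -3.39 for Cldn4 and -2.83 for Gjb2, and Cldn17 was above background in the other 4 tumors but not in it. The same difference was 2.58 for Cldn2 and 1.22 for Cldn8. Over the 38 genes it was the lowest tumor for 14 and the highest for 17, and over all 15586 genes the lowest for 30.6% and the highest for 39.2%. In the same tumor the squamous marker mean was 11.68 against 14.81 to 15.20 in the others, the simple epithelial mean 15.61 against 14.65 to 14.99, and the mean of 4 neutrophil markers 10.68 against 13.12 to 13.27. With 1 such tumor these places are a description, and the part of these cells in them was not tested.

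**Figure D4:**
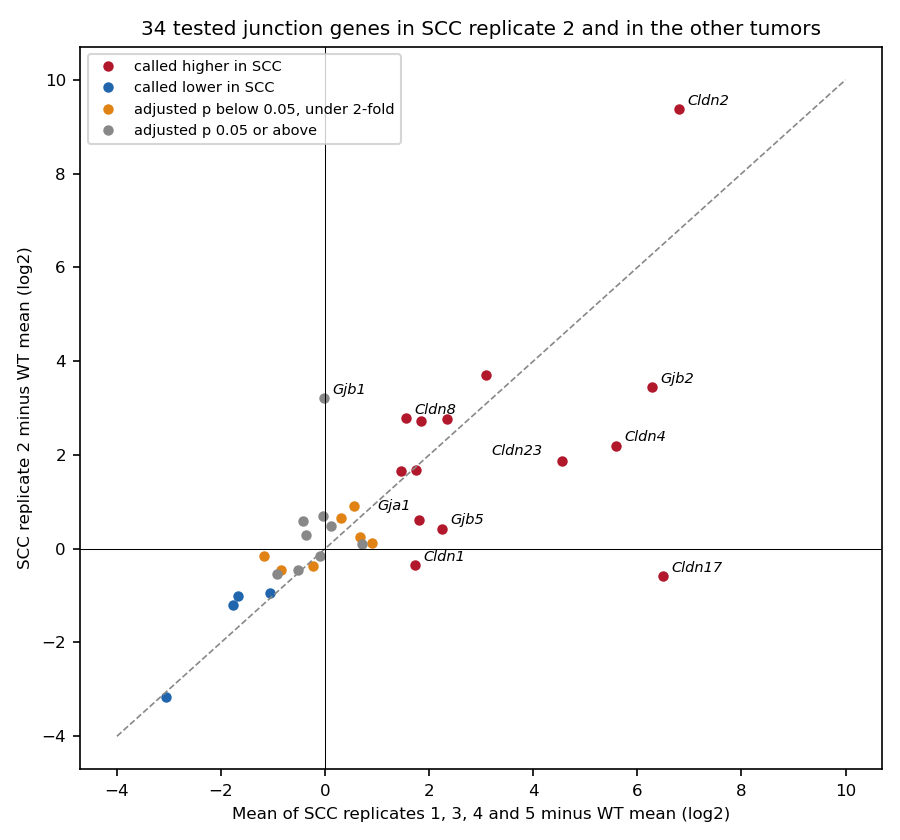
For 34 of the 38 tested junction genes, SCC replicate 2 minus the WT mean (vertical axis, log2) against the mean of the other 4 SCC arrays minus the WT mean (horizontal axis, log2), colored by call, with the line of equality dashed. Cldn17, Cldn4 and Gjb2 lie far below the line and Cldn2 and Gjb1 far above it.

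Other junction genes are read against the 11.6% called higher and 13.4% called lower over all genes tested. Of 32 other tight junction plaque and polarity genes tested, 7 were called higher and 5 lower, 15 passed under 2-fold, and the median difference was -0.33. The higher ones included St14 (2.09), a membrane protease, and Epcam (1.74), which binds Cldn7. The 5 lower ones were Esam (-1.42), an adhesion molecule of endothelium, Arhgef2 (-1.28), Mpdz (-1.19), Amotl2 (-1.18) and Magi2 (-1.15).

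Of 15 adherens junction genes tested, 5 were called higher and 2 lower, with a median of 0.18. P-cadherin, Cdh3, rose by 4.39, Nectin4 by 3.08 and Plekha7, which anchors microtubules at the junction, by 3.01, while N-cadherin, Cdh2, which heart muscle also makes, stood at -2.35, beside the 5 cardiac muscle markers that were all called lower. Cdh2 was lowest in WT replicate 1 (5.52) and highest in WT replicate 2 (7.48) among the lungs, as was Myh6 (10.06 and 14.03), and the part of heart tissue in its difference was not tested. E-cadherin, Cdh1, passed under 2-fold at 0.77. Neither of the 2 pannexin-like or other connexin genes tested was called. Of 14 transcription factors known to act on junction genes, 6 were called higher, led by Trp63 (7.44), Elf3 (4.01) and Ovol1 (3.32), with Grhl1 at 3.02 and Grhl2 at 1.32. Zeb1, a repressor of epithelial junction genes, was the only one called lower (-2.24), and 5 passed under 2-fold: Klf4 (-0.88), Snai1 (-0.84), Zeb2 (-0.77) and Snai2 (-0.53) lower and Ovol2 (0.62) higher.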

How the data were processed

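Total RNA from 5 WT lungs and 5 SCC lung tumors was measured on single-color Agilent arrays, with groups and replicate numbers taken from the sample titles. The authors read the scans with Agilent Feature Extraction, version 12 in the submitters' processing notes. The deposited scanner files hold each spot's background-subtracted intensity on a linear scale. The authors also deposited a matrix of quantile-normalized log2 values, which matched the values used here with r of at least 0.9999 on every array and served to choose each gene's brightest probe and as an alternative.

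After removal of controls and of spots with an outlier flag, log2 intensities were averaged over the spots of a probe and quantile-normalized across the 41174 probes. The flags removed every spot of 113 probes on 1 array or more, and no probe was saturated. Testing required that a group had 4 or more arrays with 0.5 or more of the probe's spots well above background, and 30374 probes met this. limma 3.58.1 in R 4.3.3 was fitted to all 10 arrays without covariates, two-sided, in place of the one-way analysis of variance of the methods, with Benjamini-Hochberg adjustment over all tested probes. Genes were called at adjusted p below 0.05 with a difference of 2-fold or more. Every adjusted p comes from this fit unless another is named, and values within slide 2 come from a fit with slide as a block. An exact two-sided permutation test over the 252 splits of the arrays can give no p below 0.00794. A fold given as "at least" sets the SCC mean against the mean of, per WT array, the probe's own signal or, if higher, the lowest signal above background. Accessions were paired with symbols through RefSeq (GRCm38.p6), which named 28223 probes (68.5%). The code was tested on simulated data.

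The members, gene lists and motifs were chosen with earlier results of these data known. Called genes and 18 preset genes are given by array, other tested genes by difference, and of each gene list the 3 called genes with the largest differences and those a result turns on. Values of 6 of these genes are not reported here. The labels do not say that replicates came from separate animals, and the study's methods say only in general that its sample sizes count biological replicates. The p-values measure the spread between these samples, which may be technical in part. Signal over background and the number of arrays limit the precision. Alternatives tried were other scalings, background corrections, filters on dim probes, blocks, weights, tests and call rules, other probes of a gene, and leaving out arrays.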

Additional observations from a re-analysis of the deposited data

Results flagged for a closer look

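On 14 occasions 1 array stood away from the other 4 of its group in a junction gene, by a gap of more than 0.71 of the whole range of the group. This was examined in 67 sets of 5 arrays. Chance would flag about 1 in 20 of independent sets, but these sets share the same 10 arrays. The share of such gaps over all genes was not counted, so the 14 are a description. Of the 14, 9 fell on SCC replicate 2, which was the lowest tumor for 30.6% and the highest for 39.2% of all genes tested. That tumor was low for Cldn17 (2.31 against 9.04 to 9.77 in the other tumors, a gap of 0.902 of the range), Cldn4 (6.77 against 9.64 to 10.59, 0.752) and Cldn23 (9.90 against 12.26 to 13.04, 0.751). It was also low for the connexins Gjb2 (12.21 against 14.88 to 15.29, 0.865), Gja1 (9.96 against 11.01 to 11.25, 0.819) and Gjb5 (6.64 against 8.20 to 8.65, 0.777). It was high for Cldn18 (13.23 against 12.49 to 12.64, 0.807), Cldn12 (10.33 against 9.13 to 9.45, 0.728) and Cxadr (11.23 against 10.01 to 10.35, 0.719).

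The other 5 lay elsewhere. SCC replicate 5, the array with the most probes above background, was low for the dim genes Cldn19 (2.16 against 4.47 to 5.11, 0.783) and Cldn14 (5.91 against 6.70 to 6.98, 0.734). WT replicate 5, the only lung on slide 2, was low for Cldn14 (5.86 against 6.11 to 6.15, 0.862) and Cldn34c1 (7.40 against 7.98 to 8.20, 0.73). WT replicate 1 was high for Ocln (11.01 against 10.45 to 10.57, 0.786).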

How the results depend on the processing

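Of the 16 genes called higher and 5 called lower, all 21 remained called with no filter on dim probes, slide as a random block (correlation -0.017), array quality weights, the methods' one-way analysis of variance, run on these 2 groups and with Benjamini-Hochberg adjustment, and the authors' matrix. The authors' matrix added Gjb6 as a call (17 higher). Array quality weights added Cldn12 (6 lower), at -1.09 (limma, adjusted p = 6.29e-06). At an unadjusted p below 0.01 the analysis of variance gave 15 higher, without Cldn1, and 5 lower. Lower calls numbered 3 after scaling to the 75th percentile, 3 after normexp, 3 with slide as a fixed block and 8 by adjusted p alone, and higher calls 8 with slide as a fixed block. Scaling to the 75th percentile moved the median of all probes from -0.09 to 0.032 and lost 2 calls, Cldn34c1 among them, and normexp lost 5, among them Cldn34c1, Cldn1, Cldn6 and Cldn22. With slide as a fixed block the calls lost included Cldn1, Cldn4, Cldn6, Cldn8, Cldn17, Cldn23, Cldn34c1, Gja1 and Gjb5, and the cause was not tested. That comparison uses fewer arrays. Some differences were also smaller in it, such as that of Cldn34c1 (-0.42 against -1.04 in the main fit), and others kept their size, such as that of Gja1 (1.56 against 1.57). A filter on all 10 arrays removed 6 called genes from the test, among them Cldn2, Cldn6, Cldn17 and Cldn22, and left 15 calls.

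Leaving out each array in turn gave 15 to 16 higher and 4 to 6 lower junction genes, and 6385 to 8135 probes in all, 2740 to 3493 of them higher and 3550 to 4642 lower. Over all probes, the 6954 calls (3014 higher, 3940 lower) became 4036 with normexp (1933 higher, 2103 lower), 2988 with slide as a fixed block (1402, 1586) and 14878 by adjusted p alone (6790, 8088). Scaling to the 75th percentile gave 6584 and turned the balance, with 3504 higher and 3080 lower. The replicate block gave 6571 calls and kept the 16 and 5. Same-numbered samples did not deviate together (r from -0.103 to 0.009), so the numbers do not pair the samples.

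Directions turned only in genes without a call. Cgn was 0.0156 with slide as a fixed block and 0.13 on another probe. Cldn11 was 0.44 after 75th percentile scaling, 0.0683 with slide as a fixed block, 0.22 with weights, between -0.26 and 0.27 with 1 array left out (0.0077 without WT replicate 3, 0.27 without SCC replicate 5) and 0.41 without SCC replicates 2 and 5. Cldn34c4 was 0.0949 after 75th percentile scaling and 0.79 with slide as a fixed block. Cxadr was 1.90 and 1.52 on its other probes. Gjb1 was -0.0041 with weights, between -0.0186 (without SCC replicate 2) and 1.49 (without SCC replicate 3) with 1 array left out, and -0.65 without SCC replicates 2 and 5. Marveld2 was between -0.0334 (without SCC replicate 2) and 0.17 with 1 array left out, and -0.0079 without SCC replicates 2 and 5.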
